A study of Mus musculus with 6 samples.

Results

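Transcripts of 44 genes of G2 and mitosis were examined in the stomach corpus of 6-month-old C57BL/6 mice. The genes were chosen by name as a list of cell cycle components, with earlier results of these data known. All 44 were found among the 18708 rows of the deposited table. Mutant mice (R122C, 3 animals), in which RUNX3, a transcription factor, carries the substitution R122C, were set against 3 wild type (WT) mice of the same strain and age. Each library came from 1 mouse, so the replicates are animals, and they are called R122C 1 to R122C 3 and WT 1 to WT 3 after the labels. Neither zygosity nor sex nor any further allele is stated in the labels. Values are FPKM, fragments scaled to transcript length and library depth, as the authors computed them. Triplets of values below are in the order of the replicate numbers 1, 2 and 3.

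A cell that leaves S phase carries copied DNA and enters mitosis when the kinase Cdk1, bound to B-type cyclins, becomes active. The spindle checkpoint then holds chromosome separation back until every kinetochore is attached, after which the anaphase-promoting complex marks securin and the cyclins for destruction and the cell divides. Most of these genes are transcribed only in cycling cells, late in the cycle, so their transcripts are widely used as markers of dividing cells. In the corpus, the acid-secreting part of the stomach, dividing cells lie mainly in the isthmus of each gland. Parietal and chief cells, which are mostly not dividing, make up much of the rest of the gland. The series is titled for an expansion of isthmus stem cells by the mutation, and these genes are one readout of dividing cells. In whole tissue, a change in the number of dividing cells and a change in RNA per cell cannot be told apart.

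G2 and mitosis genes share promoter elements that hold them off in resting cells and switch them on late in the cycle. The cell cycle homology region (TTTGAA, or its variant TTCGAA) is bound by the DREAM and MuvB complexes, and CCAAT boxes are bound by NF-Y. RUNX proteins bind a core of TGTGGT. Promoter windows from RefSeq (build GRCm38.p6), each with 250 bases before and 50 after the annotated start, were matched by symbol for 36 of the 44 genes, in 39 windows, since Bub3, Prc1 and Ect2 have 2 each. Both strands were searched for each motif, and 2 pairs of matches overlapped, a TTTGAA with a CCAAT in Cdca8 and 2 CCAAT on opposite strands in Ube2c. TTTGAA stood in a window of 77.8% of the 36 genes, against 20.2% of the 27025 genes in the RefSeq table. It began within 50 bases of the start in 72.2% of the 36 genes, against 5.72% of all. CCAAT was found for 77.8% against 41.1% of all, and at least 2 copies for 52.8% against 13.3%. The variant TTCGAA was found for 8.33% against 1.80%. The RUNX core was found for 11.1% of the 36 genes (Ect2, Kif2c, Kif11 and Plk1) and for 18.9% of all genes. A match is a string of letters and not a bound site, and binding was not measured in these data.

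The windows below belong to the 4 genes with the largest mean difference between the groups (Birc5, Nuf2, Cdk1 and Ccnb1) and to Cdc20 and Plk1, which show the typical arrangement and the RUNX core. Capitals mark the searched motifs on either strand, and the sequences run 5′ to 3′ on the strand of the gene.
Birc5, chr11:117848987-117849286, plus strand: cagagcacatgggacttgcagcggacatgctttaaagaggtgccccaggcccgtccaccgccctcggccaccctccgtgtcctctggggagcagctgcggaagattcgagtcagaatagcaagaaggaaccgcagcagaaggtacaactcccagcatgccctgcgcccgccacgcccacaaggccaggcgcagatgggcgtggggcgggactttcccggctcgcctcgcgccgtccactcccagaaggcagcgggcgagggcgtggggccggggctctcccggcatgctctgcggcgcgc
Nuf2, chr1:169531415-169531714, minus strand: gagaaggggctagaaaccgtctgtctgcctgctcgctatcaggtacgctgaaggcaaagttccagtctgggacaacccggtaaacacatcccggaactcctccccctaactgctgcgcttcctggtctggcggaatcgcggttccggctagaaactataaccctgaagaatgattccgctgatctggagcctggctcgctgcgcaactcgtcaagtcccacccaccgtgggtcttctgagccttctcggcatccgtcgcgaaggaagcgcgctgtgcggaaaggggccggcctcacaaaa
Cdk1, chr10:69352863-69353162, minus strand: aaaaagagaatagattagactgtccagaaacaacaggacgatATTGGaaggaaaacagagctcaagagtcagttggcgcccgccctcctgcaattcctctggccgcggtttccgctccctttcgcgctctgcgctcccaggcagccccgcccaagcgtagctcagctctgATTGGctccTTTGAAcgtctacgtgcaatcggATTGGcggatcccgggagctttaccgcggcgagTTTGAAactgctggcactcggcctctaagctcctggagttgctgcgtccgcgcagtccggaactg
Ccnb1, chr13:100786437-100786736, minus strand: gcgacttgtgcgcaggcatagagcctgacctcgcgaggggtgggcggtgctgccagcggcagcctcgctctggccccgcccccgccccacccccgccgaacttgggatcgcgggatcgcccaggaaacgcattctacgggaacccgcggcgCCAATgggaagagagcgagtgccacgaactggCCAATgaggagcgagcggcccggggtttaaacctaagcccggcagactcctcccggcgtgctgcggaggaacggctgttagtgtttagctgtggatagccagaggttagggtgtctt
Cdc20, chr4:118437294-118437593, minus strand: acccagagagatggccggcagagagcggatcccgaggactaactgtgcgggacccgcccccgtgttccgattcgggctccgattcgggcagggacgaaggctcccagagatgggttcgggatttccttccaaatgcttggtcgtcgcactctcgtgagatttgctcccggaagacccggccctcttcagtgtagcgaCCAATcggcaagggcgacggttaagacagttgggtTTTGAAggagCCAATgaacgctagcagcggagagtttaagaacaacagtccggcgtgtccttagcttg
Plk1, chr7:122159185-122159484, plus strand: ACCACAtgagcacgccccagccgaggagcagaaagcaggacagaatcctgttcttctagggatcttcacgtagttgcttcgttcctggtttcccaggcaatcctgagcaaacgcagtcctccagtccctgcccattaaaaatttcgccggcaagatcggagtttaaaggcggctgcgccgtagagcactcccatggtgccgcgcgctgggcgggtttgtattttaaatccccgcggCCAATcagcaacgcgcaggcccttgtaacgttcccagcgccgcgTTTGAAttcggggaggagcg
Positions are those of the leftmost base relative to the start. Cdk1 has TTTGAA at -71 and -15 and 3 CCAAT boxes, all in reverse orientation. Cdc20 has 1 TTTGAA between 2 CCAAT boxes, and Plk1 has CCAAT at -14 and TTTGAA at 30, with the reverse of the RUNX core at the upstream edge of the window. Ccnb1 has 2 CCAAT boxes only. The windows of Birc5 and Nuf2 hold none of the searched letters, as do those of Mad2l1, Nusap1 and Pttg1 (13.9% of the 36 genes, against 45.4% of all).

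**Figure D1:**
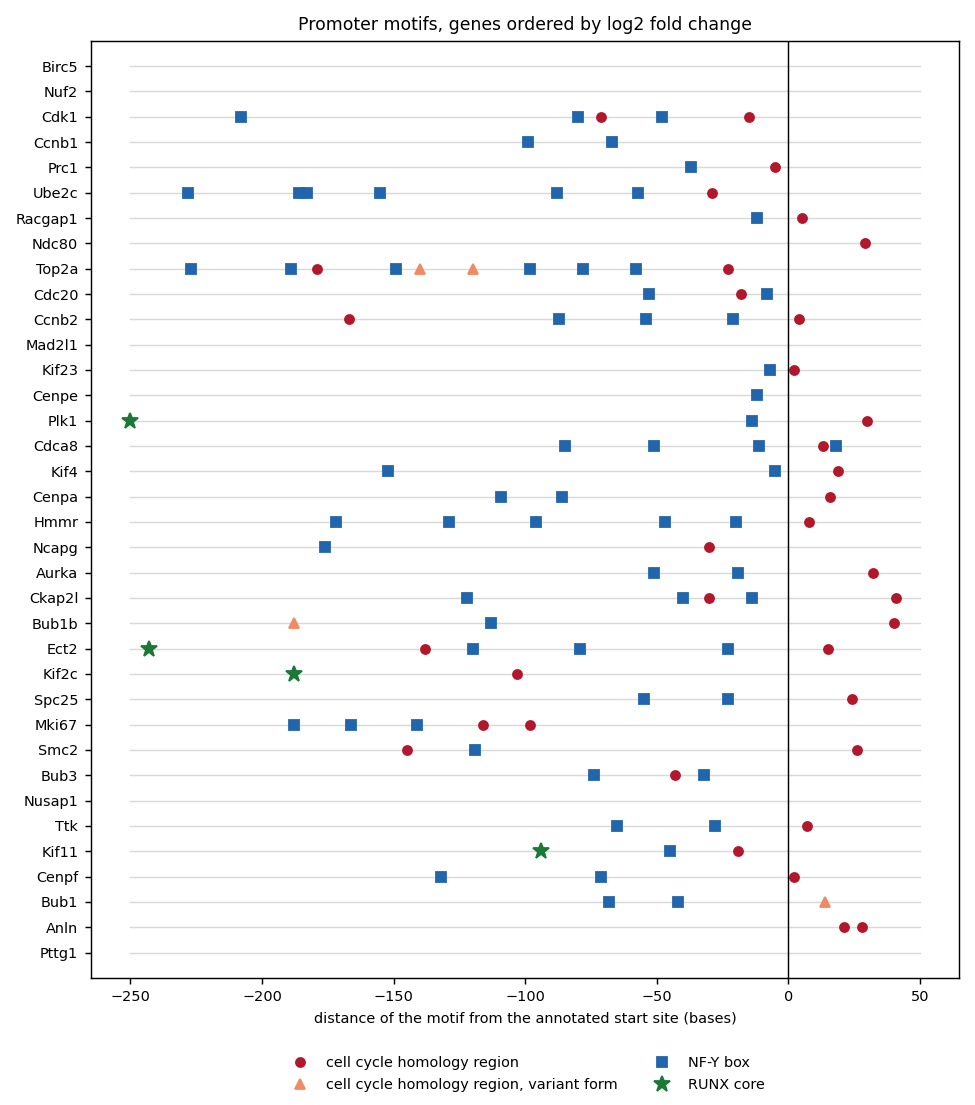
Positions of the motifs in the promoter windows of 36 G2 and mitosis genes, with the distance from the annotated start site in bases on the x axis and 1 line per gene, ordered from the largest log2 fold change (top) to the smallest (for genes with 2 windows, the one with the lower coordinate). Red circles (cell cycle homology region) crowd within 50 bases of the start, blue squares are NF-Y boxes, and the 4 green stars are the RUNX core.

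Fragment totals are not in the table, and estimates from the spacing of low values in short genes, in units of 1e6 fragments, were 32.0 to 45 in R122C and 31.8 to 43.7 in WT, which rest on the annotation used. The 10 most abundant genes took 24.5% to 29.1% of the summed FPKM in R122C and 45.3% to 46.2% in WT, and the scaling alternatives given below bear on this. The tissue label was met by the corpus transcripts Atp4a, of the proton pump, and Pgc, pepsinogen C, which were present in all 6 libraries and lowest in R122C 3 (326 and 1537 FPKM). R122C 3 also stood apart by squamous transcripts, whose 12 listed markers summed to 1841 FPKM there, against 78.4 and 169 FPKM in R122C 1 and R122C 2 and 40.8 to 180 FPKM in WT. Runx3 itself was at 0.24, 0.34 and 0.95 FPKM in R122C and 0.34, 0.12 and 0.20 FPKM in WT, too low to check the labels, and a substitution need not alter its level.

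All 44 genes had a higher mean in R122C than in WT in the deposited FPKM, with Pttg1 reversed under 2 other scalings and without WT 2, and 0 of them passed the test. On the log2(FPKM + 1) scale the 44 differences (R122C minus WT) ranged from 0.09 (Pttg1) to 1.15 (Birc5), with a median of 0.59, beside a median of 0.10 over all 11422 genes tested. In plain FPKM the ratio of the mean in R122C to the mean in WT had a median of 1.61 and ran from 1.06 to 2.74. With limma and adjustment over all tested genes, 0 of 44 passed as higher and 0 as lower, where 5.27% of all tested genes were called higher and 0.832% lower (602 and 95 genes). The smallest adjusted p of the list was 0.05004 (Nuf2). At an unadjusted limma p under 0.05, 20 of 44 were higher (45.5%, beside 15.3% of all tested genes) and 0 were lower (4.88%). The 3 R122C values lay above all 3 WT values in 28 of 44 (63.6%, beside 20.3% of tested genes). A log2 fold change above 0 was found for 44 of 44, beside 61.1% of all tested genes. The 95% intervals excluded 0 for 20 genes and reached 1 or more for 35.

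The level in WT 2 was the lowest of the 6 libraries for all 44 genes, as it was for 16.4% of all tested genes. The ratio of WT 2 to the mean of WT 1 and WT 3 had a median of 0.479 over the 44 genes and 0.956 over the tested genes detected in every WT library. The R122C values lay above both WT 1 and WT 3 in 28 of 44 genes (23.2% of all tested genes). Since WT 2 was the lowest throughout, these are the same 28 genes as those above all WT libraries, and the count is no separate check. Without WT 2, the median difference was 0.34, beside 0.09 over all tested genes, 6 of 44 were higher at an unadjusted p under 0.05 (Birc5, Nuf2, Cdk1, Ccnb1, Prc1 and Cdc20, beside 11.3% of all tested genes), and 0 passed the adjusted threshold. R122C 2 was the highest library for 27 of the 44 genes (15.6% of all tested genes), R122C 1 for 9 (35.9%), R122C 3 for 7 (13.0%) and WT 3 for 1. Without R122C 2, 7 genes were higher at an unadjusted p under 0.05, beside 10.9% of tested genes. Without R122C 3, the library with squamous transcripts, the median was 0.66 and 22 genes were higher at that level, beside 0.19 and 16.9% over all tested genes.

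**Figure D2:**
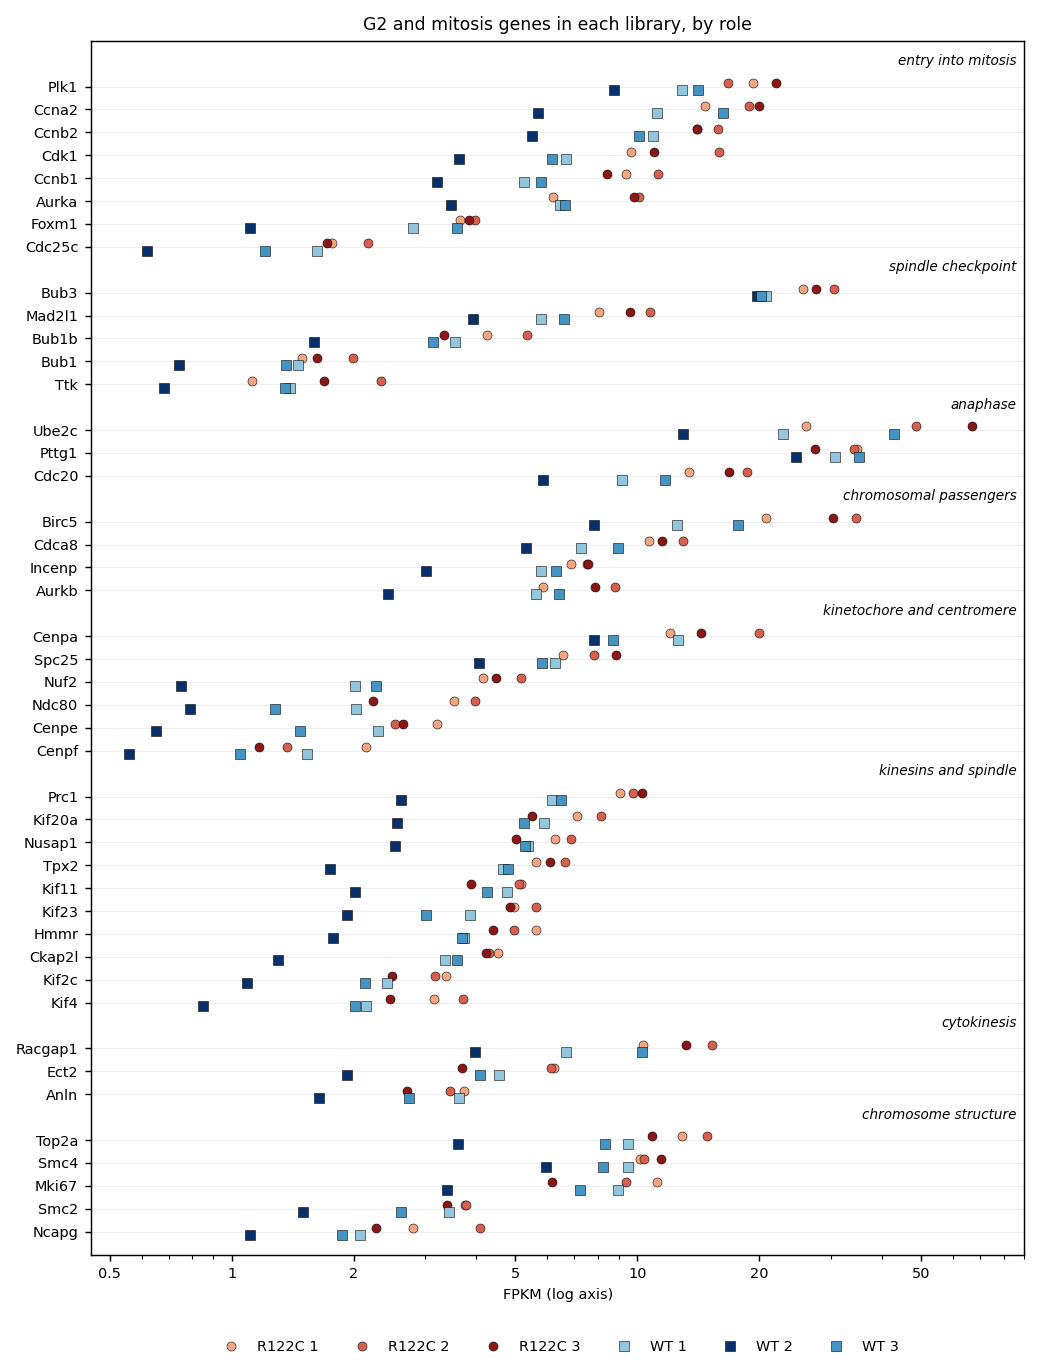
FPKM (log axis) of the 44 genes in each library, grouped by role and ordered by mean level within a role, with R122C as circles and WT as squares drawn slightly below. The dark square, WT 2, is the leftmost symbol in every line, and 28 genes have all 3 circles to the right of all 3 squares.

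Scaling moved the whole comparison. The median over all tested genes was -0.0049 after median-of-ratios scaling, -0.06 after quantile normalization and 0.29 with library sums made equal, and the 44 genes had medians of 0.51, 0.44 and 0.78. The gap between these medians stayed near 0.50 (0.50 as deposited, then 0.51, 0.50 and 0.49). Median-of-ratios and equal-sum scaling divide each library by a single factor and shift nearly all genes alike, so they could hardly change the gap. Leaving out single libraries gave gaps from 0.25 (without WT 2) to 0.66 (without WT 3). The gap was 0.21 without WT 2 and R122C 3 together. The calls over all genes were 417 higher and 193 lower with median-of-ratios scaling, 424 and 255 with quantile normalization and 1259 and 76 with equal library sums. With equal sums, 11 of the 44 genes passed as higher (Birc5, Bub3, Ccnb1, Cdc20, Cdca8, Cdk1, Mad2l1, Ndc80, Nuf2, Plk1 and Prc1). Pttg1 changed sign with median-of-ratios scaling (-0.02) and quantile normalization (-0.06).

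Entry into mitosis was covered by 8 genes, with a median difference of 0.69, and 0 passed after adjustment. At an unadjusted limma p under 0.05, 4 were higher, beside 15.3% of all tested genes. Without WT 2 it was 2, beside 11.3%. Cdk1, the kinase that drives entry (chromosome 10, 69335146 to 69352938, minus strand, GRCm38, up to 9 exons per transcript), was at 9.67, 15.9 and 10.99 FPKM in R122C and 6.67, 3.64 and 6.15 FPKM in WT. Its groups did not overlap, and the log2 fold change was 1.03 ± 0.26 (SE, interval 0.43 to 1.63, limma adjusted p = 0.0589). Ccnb1, a cyclin partner of Cdk1 (chromosome 13, 100778650 to 100786570, minus strand), was at 9.39, 11.2 and 8.41 FPKM in R122C and 5.26, 3.20 and 5.80 FPKM in WT. The groups were again apart, with a difference of 0.91 ± 0.24 (limma adjusted p = 0.0591). Without WT 2 the differences of Cdk1 and Ccnb1 were 0.80 and 0.70 (limma adjusted p = 0.213 and 0.214). Ccnb2, the second B-type cyclin, was at 14.1, 15.8 and 14.0 FPKM in R122C and 10.9, 5.49 and 10.1 FPKM in WT, apart by a smaller step of 0.72 ± 0.25 (limma adjusted p = 0.154). Plk1, a kinase active in centrosome maturation and in mitotic exit, was at 19.3, 16.7 and 22.0 FPKM in R122C and 12.9, 8.77 and 14.2 FPKM in WT. Its lowest R122C value exceeded its highest WT value, and the difference was 0.67 ± 0.22 (limma adjusted p = 0.126). Foxm1, a transcription factor that activates many G2 genes, was at 3.65, 3.98 and 3.84 FPKM in R122C and 2.80, 1.11 and 3.60 FPKM in WT. WT 3 came close to the R122C libraries for Foxm1, and the difference was 0.53 ± 0.30 (limma adjusted p = 0.367), and it was 0.21 without WT 2.

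The spindle checkpoint list of 5 genes had a median difference of 0.44. At an unadjusted p under 0.05, 2 were higher (0 without WT 2), beside 15.3% of all tested genes. Bub3, which carries checkpoint proteins to the kinetochore, was at 25.6, 30.6 and 27.6 FPKM in R122C and 20.8, 19.7 and 20.2 FPKM in WT. Its WT libraries lay close together, WT 2 included, and the groups were apart by 0.44 ± 0.16 (limma adjusted p = 0.175). Leaving out WT 2 moved the difference of Bub3 least among the 44 genes (to 0.42, limma adjusted p = 0.419). Mad2l1, the inhibitor of Cdc20, was at 8.04, 10.8 and 9.57 FPKM in R122C and 5.79, 3.94 and 6.60 FPKM in WT, with groups apart and a difference of 0.71 ± 0.22 (limma adjusted p = 0.110). Bub1, a checkpoint kinase, was at 1.49, 1.99 and 1.62 FPKM in R122C and 1.46, 0.74 and 1.36 FPKM in WT, where WT 1 lay just under R122C 1. The related Bub1b was at 4.25, 5.34 and 3.33 FPKM in R122C and 3.56, 1.60 and 3.13 FPKM in WT, and its groups overlapped. The differences of Bub1 and Bub1b were 0.32 ± 0.23 and 0.52 ± 0.27 (limma adjusted p = 0.508 and 0.336).

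The 3 anaphase genes differed from each other. Cdc20, the activator of the anaphase-promoting complex, was at 13.4, 18.7 and 16.8 FPKM in R122C and 9.16, 5.87 and 11.7 FPKM in WT, with groups apart and a difference of 0.84 ± 0.26 (limma adjusted p = 0.104). Ube2c, the ubiquitin-conjugating enzyme of that complex, was at 26.1, 48.6 and 67.0 FPKM in R122C and 22.9, 13.0 and 42.8 FPKM in WT. Its groups overlapped because WT 3 exceeded R122C 1, and the difference of 0.88 ± 0.45 did not pass (limma adjusted p = 0.325). Ube2c had the highest mean of the 44 genes, but 22.8% of its exon bases overlap Tnnc2 on the other strand, and since the labels do not state whether reads were counted by strand its value is uncertain. Pttg1, securin, which holds separase inactive, was the next in abundance, at 34.8, 34.2 and 27.4 FPKM in R122C and 30.8, 24.6 and 35.2 FPKM in WT. The highest value of Pttg1 was in WT 3, the ratio of means was 1.06 and the difference was 0.09 ± 0.20 (interval -0.36 to 0.55, limma adjusted p = 0.854).

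Among the 4 chromosomal passenger genes the median difference was 0.63. Birc5, survivin, the subunit that brings the complex to the centromere (chromosome 11, 117849251 to 117855743, plus strand), was at 20.8, 34.7 and 30.4 FPKM in R122C and 12.5, 7.81 and 17.7 FPKM in WT. All R122C libraries were above all WT libraries, and its difference was the largest of the list at 1.15 ± 0.30 (interval 0.45 to 1.84, limma adjusted p = 0.0655). Birc5 passed without R122C 1 (1.36, limma adjusted p = 0.0498) and without WT 3 (1.41, limma adjusted p = 0.0474), while without WT 2 the difference was 0.87 (limma adjusted p = 0.213). Cdca8, borealin, was at 10.7, 13.0 and 11.5 FPKM in R122C and 7.26, 5.31 and 8.98 FPKM in WT, with groups apart and a difference of 0.66 ± 0.22 (limma adjusted p = 0.125). Aurkb, the kinase of the complex, was at 5.84, 8.79 and 7.87 FPKM in R122C and 5.62, 2.43 and 6.40 FPKM in WT. The Aurkb groups overlapped, with a difference of 0.61 ± 0.31 (limma adjusted p = 0.326).

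The 6 kinetochore and centromere genes had a median of 0.64. At an unadjusted p under 0.05, 4 were higher (1 without WT 2), beside 15.3% of all tested genes. Nuf2, of the NDC80 complex that binds microtubules (chromosome 1, 169497934 to 169531464, minus strand), was at 4.16, 5.16 and 4.48 FPKM in R122C and 2.01, 0.75 and 2.27 FPKM in WT. The lowest R122C value of Nuf2 was well above the highest WT value, and its ratio of means, 2.74, was the largest of the list. The difference was 1.11 ± 0.27 (interval 0.49 to 1.73), with a limma adjusted p of 0.05004, just above the threshold. It was 0.83 without WT 2 (limma adjusted p = 0.149), and Nuf2 passed with robust variance estimates (0.0429) or without the mean-variance trend (0.0454). Ndc80, the partner of Nuf2 in the same complex, was at 3.54, 3.98 and 2.23 FPKM in R122C and 2.02, 0.79 and 1.28 FPKM in WT. R122C 3 was close to WT 1 for Ndc80, and the difference was 0.86 ± 0.27 (limma adjusted p = 0.117). Cenpa, the histone H3 variant of centromeres, was at 12.0, 20 and 14.4 FPKM in R122C and 12.6, 7.82 and 8.73 FPKM in WT, so that WT 1 exceeded R122C 1. Cenpe, a kinesin of the kinetochore, was at 3.21, 2.53 and 2.65 FPKM in R122C and 2.30, 0.65 and 1.47 FPKM in WT, with no overlap. The differences of Cenpa and Cenpe were 0.62 ± 0.25 and 0.67 ± 0.28 (limma adjusted p = 0.209 and 0.226).

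The 10 kinesin and spindle genes had a median difference of 0.59. At an unadjusted p under 0.05, 4 of them were higher (1 without WT 2), beside 15.3% of all tested genes. Prc1, which bundles the microtubules of the spindle midzone, was at 9.06, 9.77 and 10.3 FPKM in R122C and 6.16, 2.62 and 6.50 FPKM in WT. Its R122C libraries were close to each other and clear of WT, with a difference of 0.88 ± 0.29 (limma adjusted p = 0.124). Kif23, a motor of the midzone, was at 4.96, 5.62 and 4.85 FPKM in R122C and 3.86, 1.92 and 3.01 FPKM in WT, with no overlap (0.67 ± 0.23, limma adjusted p = 0.147). Kif4, a chromosome-bound kinesin encoded on the X chromosome, was at 3.16, 3.72 and 2.46 FPKM in R122C and 2.15, 0.85 and 2.01 FPKM in WT. Hmmr, a spindle assembly factor, was at 5.62, 4.96 and 4.42 FPKM in R122C and 3.74, 1.78 and 3.69 FPKM in WT. Both Kif4 and Hmmr had groups apart, with differences of 0.65 ± 0.27 and 0.60 ± 0.25 (limma adjusted p = 0.219 and 0.234). Kif11, the motor that pushes the spindle poles apart, was at 5.17, 5.10 and 3.88 FPKM in R122C and 4.77, 2.01 and 4.27 FPKM in WT. Kif20a, a motor needed for cytokinesis, was at 7.09, 8.12 and 5.51 FPKM in R122C and 5.88, 2.56 and 5.26 FPKM in WT. For Kif11 and Kif20a, R122C 3 was within or under the range of WT 1 and WT 3, and the differences were 0.33 ± 0.28 and 0.55 ± 0.28 (limma adjusted p = 0.567 and 0.330). Of the exon bases of Kif4, Prc1 and Kif20a, 15.1%, 11.1% and 29.3% are shared with a gene on the other strand, which makes their values less certain.

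The 3 cytokinesis genes and the 5 genes of chromosome structure had median differences of 0.51 and 0.44. Racgap1, a GTPase activator of the division furrow, was at 10.30, 15.3 and 13.2 FPKM in R122C and 6.68, 3.99 and 10.29 FPKM in WT, so that R122C 1 and WT 3 nearly met (0.86 ± 0.30, limma adjusted p = 0.155). Ect2, which activates RhoA at the furrow, was at 6.25, 6.13 and 3.69 FPKM in R122C and 4.57, 1.93 and 4.10 FPKM in WT. Anln, anillin, was at 3.74, 3.46 and 2.71 FPKM in R122C and 3.64, 1.64 and 2.74 FPKM in WT. In both Ect2 and Anln the R122C 3 value was under those of WT 1 and WT 3, and the differences were 0.51 ± 0.30 and 0.26 ± 0.25 (limma adjusted p = 0.394 and 0.645). Top2a, the topoisomerase that untangles sister chromatids, was at 12.9, 14.8 and 10.9 FPKM in R122C and 9.46, 3.62 and 8.31 FPKM in WT. Its groups were apart by 0.85 ± 0.31 (limma adjusted p = 0.171). Mki67, the Ki-67 proliferation marker, was at 11.2, 9.36 and 6.15 FPKM in R122C and 8.95, 3.39 and 7.23 FPKM in WT. The groups of Mki67 overlapped, the difference was 0.44 ± 0.33 (interval -0.32 to 1.21, limma adjusted p = 0.524), and it was 0.09 without WT 2 and 0.66 without R122C 3. Ncapg and Smc2, subunits of condensin, were at 2.80, 4.10 and 2.27 FPKM and at 3.76, 3.79 and 3.40 FPKM in R122C, against 2.07, 1.11 and 1.87 FPKM and 3.44, 1.5 and 2.61 FPKM in WT. Of these, Ncapg had groups apart (0.59 ± 0.26, limma adjusted p = 0.242), and Smc2 overlapped by a single pair of libraries (0.44 ± 0.25, limma adjusted p = 0.376).

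The remaining 12 genes were Ccna2, Tpx2, Aurka, Ckap2l, Incenp, Kif2c, Spc25, Cdc25c, Nusap1, Smc4, Ttk and Cenpf, with differences from 0.33 to 0.74 and limma adjusted p from 0.256 to 0.552. All R122C values lay above all WT values in 7 of them, beside 20.3% of all tested genes. Their mean levels ran from 1.30 FPKM (Cenpf) to 14.4 FPKM (Ccna2, cyclin A2), and 7 of all 44 genes, Ccna2, Cdc25c and Ncapg among them, share over 10% of their exon bases with another gene.

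**Figure D3:**
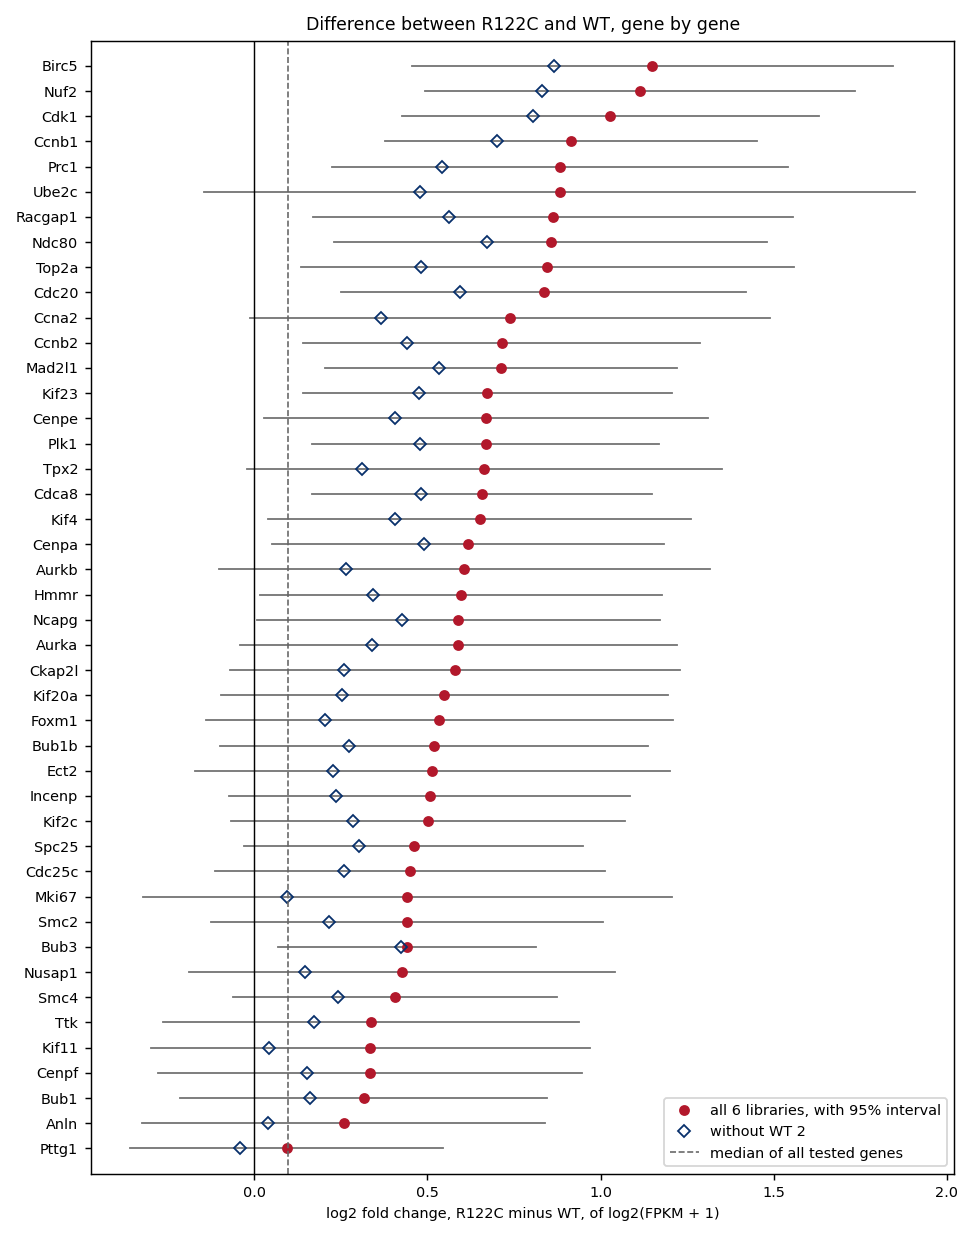
Log2 fold change (R122C minus WT, log2(FPKM + 1) scale) of each gene with its 95% limma interval in all 6 libraries (red) and without WT 2 (open diamonds), with the median of all tested genes dashed at 0.10. All 44 red points are above 0 on this scaling (Pttg1 is below 0 on 2 others), 20 intervals exclude 0, and the diamonds lie to the left of the red points.

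Genes of the same pathway outside the list gave smaller medians. Of 77 other G2 and mitosis genes, 58 were tested, of which 0 passed, and the median difference was 0.36. At an unadjusted limma p under 0.05, 15 were higher and 1 was lower, beside 15.3% and 4.88% of all tested genes. The lower one was Wee1, the kinase that holds Cdk1 inactive, named here after its values were seen. Wee1 was at 8.71, 5.16 and 3.81 FPKM in R122C and 11.2, 12.8 and 9.79 FPKM in WT, so that its groups did not overlap, with a difference of -0.89 ± 0.27 (limma adjusted p = 0.104). It passed as lower with median-of-ratios scaling and with quantile normalization (limma adjusted p = 0.0328 and 0.0305), and not with equal library sums (adjusted p = 0.135). The difference of Wee1 was -0.80 without WT 2 and -0.66 without R122C 3 (limma adjusted p = 0.327 and 0.178). With equal sums 7 of the 58 passed as higher, beside 1259 of all 11422 tested genes. In the S phase list all 28 tested genes had a difference above 0 (25 with quantile normalization), beside 61.1% of all tested genes (43.2%). The median was 0.44, and 11 were higher at an unadjusted limma p under 0.05, beside 15.3% of all tested genes. Of the 28, 3 rose, beside 5.27% of all tested genes. The count was 2 with quantile normalization and 7 with equal library sums, beside 424 and 1259 of the 11422 tested genes. The 3 were Tyms, thymidylate synthase (0.79 ± 0.17, limma adjusted p = 0.0295), Gins1, of the replicative helicase (0.84 ± 0.18, limma adjusted p = 0.0312), and Ung, uracil-DNA glycosylase (1.01 ± 0.23, limma adjusted p = 0.0420). Tyms was at 10.2, 10.4 and 10.2 FPKM in R122C and 5.80, 5.15 and 5.54 FPKM in WT, with WT 2 only slightly under the other WT libraries. Without WT 2, 0 of the 3 passed (limma adjusted p = 0.140 for Tyms, 0.147 for Gins1 and 0.177 for Ung). Their differences were then 0.75, 0.78 and 0.88, and 246 of all tested genes were called higher in that fit. Without R122C 3, Gins1 and Ung passed (limma adjusted p = 0.0431 and 0.0189) and Tyms did not (0.0537).

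Regulators of other steps were read in the same way, and the single genes named here were chosen after their values were seen. Over all tested genes, 15.3% were higher at an unadjusted limma p under 0.05. Of 6 tested G1 cyclins and kinases, 0 passed and 3 were higher at an unadjusted p under 0.05, with a median of 0.47. These were Cdk2, Ccne1 and Ccnd1, with differences of 0.58, 0.75 and 0.50 (limma adjusted p = 0.0984, 0.122 and 0.155). Of 15 genes of the anaphase-promoting complex, counting its co-activator Fzr1, 0 passed, with a median of 0.11 (-0.03 with quantile normalization). The complex is present through much of the cycle. Among the 15, 1 was higher at an unadjusted p under 0.05 (Cdc16, 0.59). Of 11 cohesin genes 0 had an unadjusted p under 0.05, and the median was -0.04 (0.16 with equal library sums). The 15 tested transcription regulators of the cycle had a median of 0.19, with 0 past the threshold and 3 higher at an unadjusted p under 0.05. Of 6 cyclin-dependent kinase inhibitors 0 passed and 1 was higher at an unadjusted p under 0.05 (Cdkn2d, 0.60), with a median of 0.07 (-0.08 with quantile normalization). Whether the lists differ from each other was not tested.

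**Figure D4:**
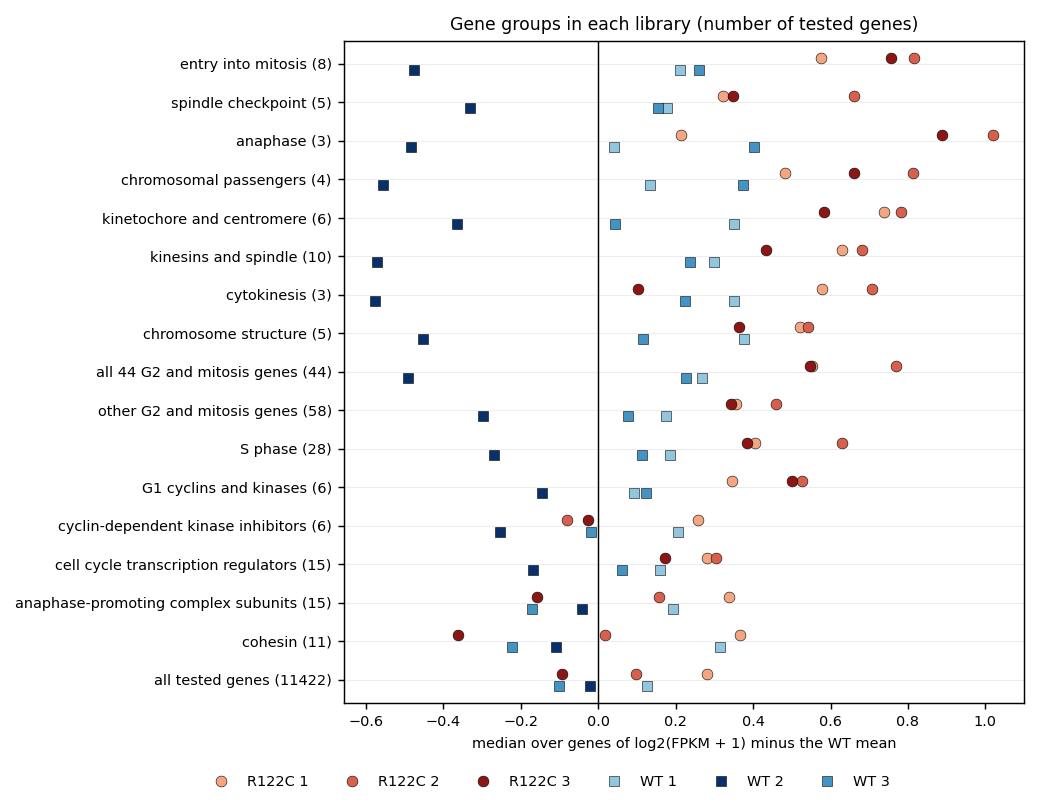
Median over the genes of each group of log2(FPKM + 1) minus the WT mean, per library, for the 8 roles, the 44 genes together, 7 further lists and all tested genes (number of tested genes in brackets). For the 44 genes the R122C libraries lie at 0.55, 0.77 and 0.55 and the WT libraries at 0.27, -0.49 and 0.23.

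Markers of other cells were read beside the list. Over all tested genes, 15.3% were higher and 4.88% lower at an unadjusted limma p under 0.05. Of the 12 squamous markers 9 were tested and 1 rose (Krt13; 0 with median-of-ratios or quantile scaling, and a limma adjusted p of 0.0915 without WT 2), and in R122C 3 the basal keratins Krt5 and Krt14 were at 42.9 and 63.3 FPKM while Trp63 was at 0.88 FPKM. Of 12 leukocyte markers 5 were tested, of which 0 passed with limma and 3 were higher at an unadjusted p under 0.05, and the median difference of the 5 was 0.76. The 3 were Jchain, Mzb1 and Ptprc, named after their values were seen, with differences of 2.25, 1.15 and 0.72 (limma adjusted p = 0.0812, 0.127 and 0.171) and groups that did not overlap. The 12 markers summed to 62.2, 51.8 and 95.8 FPKM in R122C and 53.9, 35.4 and 14.8 FPKM in WT, mostly from Lyz2 and Jchain, while Cd3e reached at most 0.86 FPKM (in R122C 3) and Ms4a1 was listed at 0 in R122C 1 and all WT libraries. Mucous neck markers, 4 of 4, rose under each scaling (Tff2 had a limma adjusted p of 0.0544 without WT 2), summing to 25776, 17666 and 18330 FPKM in R122C and 3216, 3581 and 4958 FPKM in WT. Pit markers summed to 69817, 77647 and 53176 FPKM in R122C and 104449, 242853 and 200149 FPKM in WT, and WT 2 had the highest sum. Of the 4, 1 passed as lower (Muc5ac), and 3 were lower at an unadjusted limma p under 0.05. Parietal markers summed to 5501, 4253 and 1052 FPKM in R122C and 9214, 4513 and 6827 FPKM in WT, with 0 of 5 past the threshold and 1 lower at an unadjusted limma p under 0.05. Chief cell markers summed to 13631, 25030 and 1751 FPKM in R122C and 99315, 30818 and 54595 FPKM in WT, with 0 of 4 past it and 1 lower at an unadjusted limma p under 0.05. The chief cell sum came mostly from Pgc, and 1 of the 4, Pga5, had a higher mean in R122C (0.81, limma adjusted p = 0.393). Gif was listed among both the parietal and the chief cell markers and counts in both sums. Antral markers summed to 5.44, 8.90 and 9.45 FPKM in R122C and 0.92, 2.47 and 2.72 FPKM in WT, with 1 of 2 tested genes higher (Gast; 0 with quantile normalization, and a limma adjusted p of 0.0902 without WT 2). Endothelial and fibroblast markers summed to 45.8, 45.7 and 26.8 FPKM in R122C and 59.2, 24.1 and 17.2 FPKM in WT, with 0 of 5 past the threshold and 0 at an unadjusted limma p under 0.05. Of the 4 isthmus markers, which include Mki67, 1 rose (Sox9; 0 with median-of-ratios or quantile scaling, and a limma adjusted p of 0.119 without WT 2 and 0.0655 without R122C 3), and Stmn1 was at 58.4, 62.4 and 60.6 FPKM in R122C and 55.7, 27.7 and 58.0 FPKM in WT, so that WT 2 was again the low library. The part of cell composition in the difference of the G2 and mitosis genes was not tested.

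**Figure D5:**
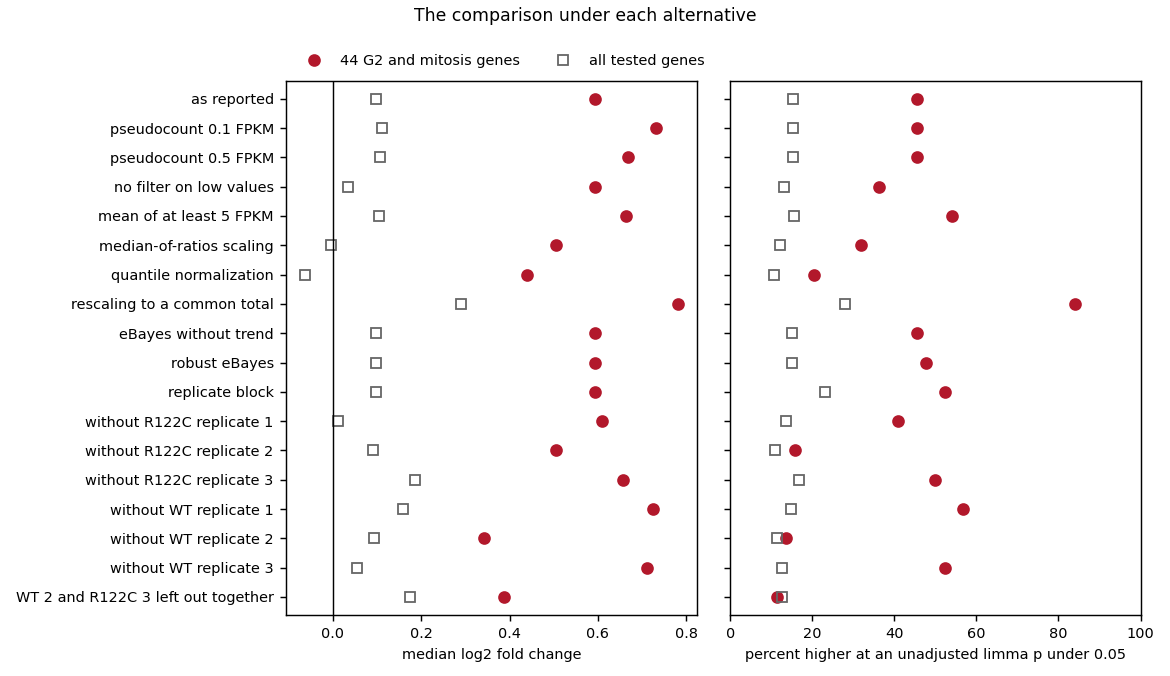
Median log2 fold change (left) and percent of genes higher at an unadjusted limma p under 0.05 (right) for the 44 genes (red) and for all tested genes (open squares), as reported and under each alternative. The red points are to the right of the squares in the left panel throughout, and in the right panel they come near the squares without R122C 2 (15.9% against 10.9%) and without WT 2 (13.6% against 11.3%), and fall to 11.4% against 12.7% when WT 2 and R122C 3 are both left out.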

How the data were processed

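RNA was measured in corpus tissue of 3 R122C and 3 WT mice. The deposited table holds FPKM values computed by the authors, and STAR, featureCounts and the build mm10 are named per the submitters' processing notes, with the conversion from counts to FPKM not given in the sources used here. Total RNA was column-purified with DNase digestion, per the labels' protocols. Values were tested as log2(FPKM + 1) with limma 3.58.1 in R 4.3.3 (mean-variance trend, two-sided, no covariate) for the 11422 of 18708 rows with a mean of at least 1 FPKM, which include all 44 genes. P-values were adjusted by Benjamini-Hochberg over the tested genes, at a threshold of 0.05. The pseudocount of 1 FPKM understates differences of low genes. The test was checked on simulated data. Depth was estimated in genes with under 1000 or 1500 exon bases, with 4 estimates per library that differed by at most 2.4%, and gives no counting interval. Positions and exon overlaps are from GENCODE M21, promoters from RefSeq.

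The members and lists were chosen with earlier results of these data known. Of the 44 genes, all may be named, and values per library are given for 32 of them: those with an unadjusted p under 0.05 or an adjusted call without 1 library, the 5 most abundant, the first 2 of each role, and Mki67, Top2a and Foxm1. None shares all its values with another row. The alternatives were other pseudocounts, filters, scalings and variance models, a replicate block and leaving out libraries. Figures were drawn with matplotlib 3.10.9.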

Additional observations from a re-analysis of the deposited data

How the results depend on the processing

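The count of genes past the adjusted threshold, 0 of 44, became 11 after rescaling to a common total, 2 with the replicate block (Nuf2 and Plk1), and 1 each (Nuf2) without the trend or with robust estimates, and it ranged from 0 to 1 when single libraries were left out. Over all 11422 tested genes, 602 were called higher in the reported fit. That number was 1259 with a common total, 1119 with the replicate block, 614 without the trend and 630 with robust estimates. The count at an unadjusted p under 0.05, 20 of 44, beside 15.3% of all tested genes, was 13 of 24 at a mean of at least 5 FPKM (15.5% of all), 9 with quantile normalization (10.8%), 37 after rescaling to a common total (27.9%) and 5, or 11.4%, without WT 2 and R122C 3 together (12.7%), and ranged from 6 to 25 without single libraries. The median difference of 0.59 was 0.73 with a pseudocount of 0.1, 0.44 with quantile normalization, 0.78 with a common total and 0.39 without WT 2 and R122C 3, and ranged from 0.34 to 0.72 without single libraries. Pttg1 reversed under median-of-ratios scaling (-0.022), quantile normalization (-0.056) and without WT 2 (-0.040), with a range from -0.040 to 0.21 without single libraries. No other gene among the 32 with values per library changed sign under the alternatives run.

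Over all genes, 602 higher and 95 lower became 392 and 57 at a mean of at least 5 FPKM, 1119 and 259 with the replicate block, 393 and 45 without WT 2 and R122C 3, and 1259 higher with a common total, while 193 were lower with median-of-ratios scaling and 255 with quantile normalization. Without single libraries the counts ranged from 246 to 581 higher and from 14 to 195 lower. Deviations of samples with the same replicate number correlated at 0.47, 0.02 and 0.37 over genes for numbers 1, 2 and 3. R122C 1 and R122C 3 correlated best with the WT library of their own number, and R122C 2 with WT 1 (0.0962). The gap between 0.02 and 0.0962 is too small to decide whether the numbers are pairs. Estimated fragment totals also went with the number in both groups. The reported fit did not take the numbers as pairs, and only the replicate block allowed for a factor shared by number. What such a factor might be, and the cause of the changes in the counts, was not tested. With 3 mice a group and levels of a few FPKM, the 95% intervals of the 44 genes had a median width of 0.61 to either side on the log2 scale.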

Other observations

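The difference between R122C 3 and R122C 1 varied with transcript length, and that between R122C 3 and R122C 2 varied little over all tested genes. Over all tested genes with a GENCODE length (96.8%), the median of R122C 3 minus R122C 1 was -0.24 on the log2(FPKM + 1) scale for genes with under 4000 exon bases, -0.40 from 4000 to below 6000 and -0.53 at 6000 or more. Among the G2 and mitosis genes it was 0.34 for the 10 shorter genes, 0.02 for 20 genes and -0.21 for the 14 longest, which include Mki67, Kif11 and Anln. R122C 3 minus R122C 2 was -0.18, -0.20 and -0.21 in the same order of length over all tested genes and -0.09, -0.24 and -0.19 for the G2 and mitosis genes. The contrast between WT 3 and WT 1 was 0.14, -0.06 and -0.15 for the G2 and mitosis genes and -0.15, -0.22 and -0.32 for all tested genes. The part of RNA quality or depth in this was not tested.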
